A study of Mus musculus with 12 samples.

Results

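The Frizzled receptors described here are the 9 genes Fzd2, Fzd3, Fzd4, Fzd5, Fzd6, Fzd7, Fzd8, Fzd9 and Fzd10, taken by their symbols from the 118 genes of a mouse Notch-pathway oligonucleotide membrane. Each of the 9 had 1 spot per array. Fzd1, also on the membrane, is not among the 9. It was above background on all 12 arrays, stayed in the fits and passed in none of the comparisons below. The membrane had been hybridised with biotin-labelled target made from RNA of embryonic kidney. The 12 arrays covered gestational days 12, 13, 14, 16 and 18, named E12, E13, E14, E16 and E18, with 3 arrays at E12, 3 at E13 and 2 at each of E14, E16 and E18. No strain, genotype or treatment was labelled. Arrays that share a stage were labelled as technical replicates, so the p-values between stages measured the spread between arrays and not between embryos. Those of the slopes over gestational day measured the scatter of the 5 stage means about a line. How many embryos gave the RNA is not given in the sources used here.

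Frizzled proteins are receptors with 7 membrane passes that bind Wnt ligands through a cysteine-rich domain outside the cell. With the co-receptors Lrp5 and Lrp6 they stabilise beta-catenin, the product of Ctnnb1, and by other routes they orient cells within the plane of an epithelium. In the developing kidney, Wnt signals pass between the ureteric bud, which branches into collecting ducts, and the mesenchyme around it, which forms nephrons. The mammalian receptors fall into subfamilies of related sequence, and Fzd2 and Fzd7, Fzd3 and Fzd6, Fzd5 and Fzd8, and Fzd4, Fzd9 and Fzd10 are treated together below.

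Over the 118 genes, the median signal of an array was 4318.5 to 9617 intensity units, which was 2.69 to 7.93 times the mean of its 6 negative-control spots. A spot with more signal than those controls' mean plus 2 SD was taken as above background on that array. E13 replicate 1, E16 replicate 1 and E18 replicate 1 had the highest background, with a negative-control mean of 2324.33 to 3494.83 units, against 772.5 to 1744.67 on the other 9 arrays. Of 8 kidney markers listed (Wt1, Pax2, Six2, Gdnf, Ret, Wnt11, Nphs1 and Umod), 1 was measured, Wnt11, a ligand made at the tips of the ureteric bud, and it was above background on all 12 arrays. No other gene of that list could check the tissue. Of the markers listed for other cell types, those above background on all 12 arrays were 3 of 3 endothelial, 2 of 7 blood and 4 of 6 keratinocyte genes on the membrane. Over all genes these were 82 of 118 (69.5%).

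Most of the 9 receptors were detected in the embryonic kidney, and several lay near the limit of detection. Of 108 Frizzled spots, 74 were above background (68.5%), against 1237 of 1416 spots over all genes (87.4%). Fzd6 and Fzd9 were the 2 of 9 members above background on every array, while 82 of 118 genes were (69.5%). Fzd7 was above on 11 of 12 arrays, Fzd2 and Fzd3 on 10 each, Fzd8 on 9 and Fzd5 on 6. Fzd4 and Fzd10 were above on 2 arrays each and never on every array of a stage. In bulk tissue, fewer cells of a type and less RNA per cell cannot be told apart, and a spot at background sets no lower limit on either.

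**Figure D1:**
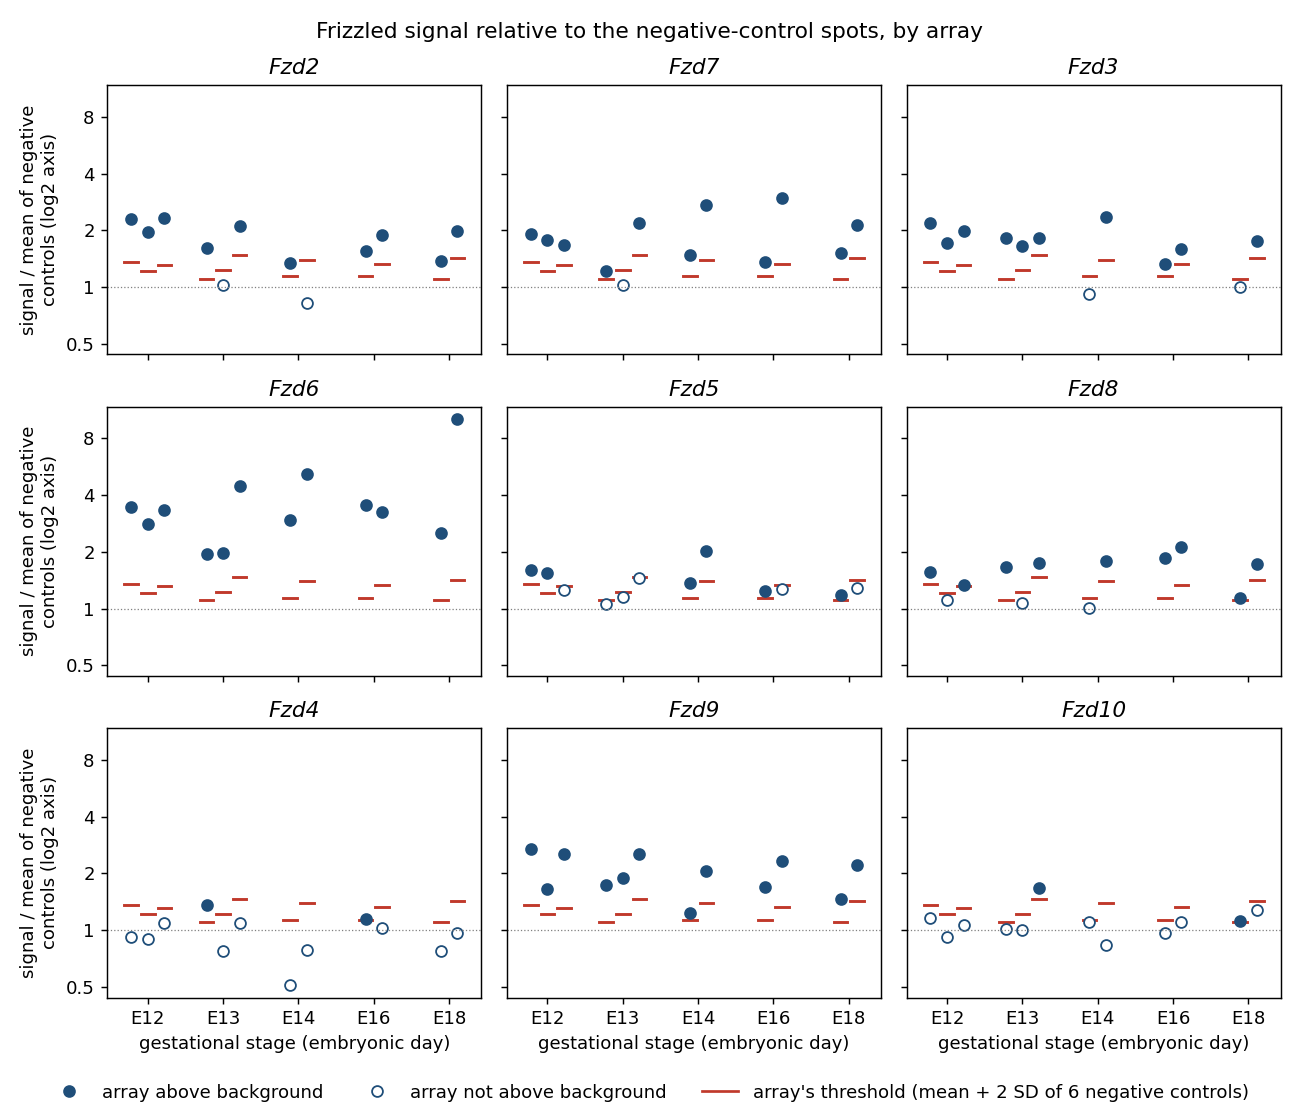
Signal of each Frizzled spot divided by the mean of the 6 negative-control spots of the same array (vertical log2 axis), by gestational stage; each point is 1 array, filled where it is above background, and each red bar is that array's threshold of the mean plus 2 SD. Fzd6 and Fzd9 lie above the threshold on all 12 arrays, Fzd4 and Fzd10 on 2 each. Probes differ in brightness, so heights are read against the bars and not between genes.

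By stage, the number of members above background per array was 6 to 7 at E12, 3 to 7 at E13, 5 to 6 at E14, 6 to 8 at E16 and 6 to 7 at E18. The lowest count was on E13 replicate 2, where Fzd3, Fzd6 and Fzd9 alone were above. On that array Fzd2 and Fzd7 were at 1.03 and 1.02 times the negative-control mean. E13 replicate 2 also had the lowest count over all 118 genes, with 94 above background. E14 replicate 2 had 94 as well, with 6 members above. The counts of the stages overlapped. The count of 8 at E16 was on replicate 1, among the 3 arrays of highest background. On those 3 arrays the threshold was 1.11 to 1.14 times the negative-control mean, and 22 of 27 Frizzled spots passed. On the other 9 it was 1.14 to 1.47 times, and 52 of 81 passed. Over all 118 genes, 109, 99 and 103 were above background on E13, E16 and E18 replicate 1, and 94 to 112 on each of the other 9. The part of the background in these counts was not tested. Members above background on every array of a stage numbered 5 for E12, then 3 for E13, 4 for E14, 6 for E16 and 5 for E18. Over all 118 genes the same counts, in stage order, were 95, 92, 92, 95 and 96. This count asks for 3 arrays at E12 and E13 and for 2 at the other stages.

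Stage levels were then compared on the normalized log2 scale. Genes were tested where some stage had every array above background, which kept 106 of 118 genes and 7 of the 9 Frizzled members, all but Fzd4 and Fzd10. None of the 7 passed the moderated F test over the 5 stages at a limma adjusted p of 0.05, a test that called 0.943% of all genes. The lowest adjusted p among members was 0.307, for Fzd2. By the unadjusted p, 1 of 7 members (Fzd2) and 12 of 106 genes were under 0.05.

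Each later stage was set against E12 with limma. At E13, 0 of 7 members passed, with 0% of all genes called. At E14, 0 of 7 passed, with 0.943% of all genes called. At E16, and again at E18, 0 of 7 passed, with 1.89% of all genes called. Unadjusted, p was under 0.05 for Fzd2 at E13 and again at E14, for Fzd8 at E16 and for 0 members at E18, out of 5, 5, 13 and 18 genes. With the replicate number as a block, 1 gene was called at E14, 1 at E16 and 0 at E18, against 1, 2 and 2 without it, and 0 against 1 were called both in the F test and for E16 minus E14. Between successive stages, 0 of 7 members passed from E13 to E14 (0% of all genes called), from E14 to E16 (0.943%) and from E16 to E18 (0%), with 2 members (Fzd7 and Fzd9), 1 (Fzd2) and 0 among 6, 8 and 4 genes at an unadjusted p under 0.05. Over gestational day, with the stage as the unit, 0 of 7 members passed, with 1.89% of all genes called, and 2 members (Fzd3 and Fzd6) among 18 genes had an unadjusted p under 0.05.

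The normalized log2 values of the single arrays were then compared with those of E12. At E13, 1 of 7 members, Fzd2, had no overlap with E12 and was lower, and 4.72% of all genes had none in either direction. At E14 these were Fzd2 and Fzd9, both lower, at a background of 22.6%. At E16 they were Fzd8, higher, and Fzd3, lower, at a background of 21.7%. At E18 Fzd3 was lower, at a background of 34%. The median difference of the 7 members was -0.36 for E13 minus E12, -0.04 for E14 minus E12, 0.01 for E16 minus E12 and -0.05 for E18 minus E12. Over all 106 genes these medians were -0.03, 0.02, 0.05 and 0.02. In signal over the negative-control mean, Fzd2 at E13, Fzd9 at E14 and Fzd3 at E18 did overlap with E12. Fzd2 at E14 and Fzd3 and Fzd8 at E16 had no overlap with E12 on that scale either.

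**Figure D2:**
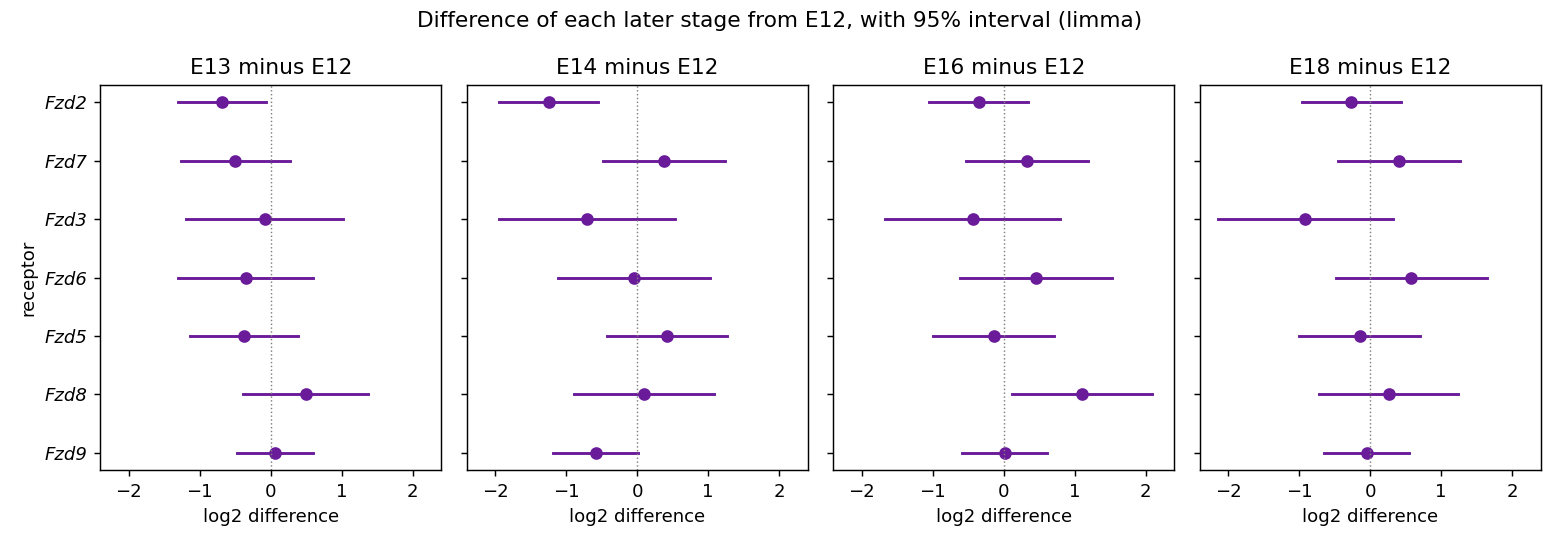
Difference of E13, E14, E16 and E18 from E12 for each tested Frizzled receptor, in log2 units with its 95% interval from limma; the dotted line marks 0. The intervals of Fzd2 at E13 and E14 and of Fzd8 at E16 leave out 0 before adjustment, and none of these differences passed after it.

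Fzd2, mutated in a human skeletal dysplasia, had the lowest adjusted p of the 7 tested members against E12. Its signal was 2335 and 776 units at E14, or 1.34 and 0.82 times the negative-control mean, against 2521, 3084 and 2145 units at E12, or 2.29, 1.95 and 2.34 times. At E14, then, 1 of 2 arrays was at background, and at E12 all 3 were above it. The normalized log2 level was 9.73 ± 0.44 (SD, n = 2) at E14 and 10.98 ± 0.29 (SD, n = 3) at E12, a difference of -1.25 (SE 0.31, 95% interval -1.94 to -0.55). The limma adjusted p was 0.155 and the unadjusted p 0.00292. Because replicate 2 of E14 was not above background, the size of this difference rests partly on a bound. Without that array the difference was -0.91, and without replicate 1 of E14 it was -1.59.

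At the other stages Fzd2 was at 10.30 ± 0.43 (SD, n = 3) at E13, 10.62 ± 0.33 (SD, n = 2) at E16 and 10.72 ± 0.20 (SD, n = 2) at E18. In order of level the stages ran E12, E18, E16, E13 and E14, and the arrays of each neighbouring pair in that order overlapped. E16 differed from E14 by 0.89 (SE 0.33, limma adjusted p = 0.464), and its arrays were the higher ones without overlap, as 31.1% of all genes had none in either direction. Without E14 replicate 2 this difference was 0.57. E18 differed from E12 by -0.26 (SE 0.31, 95% interval -0.96 to 0.43). The lower values at E13 and E14 thus stood between higher ones on either side, and the slope over gestational day was 0.02 log2 units per day (SE 0.09), with a range of -0.07 to 0.14 when 1 array or 1 stage was left out.

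Fzd7, known for its part in stem and progenitor cells of several tissues, was above background on every array but E13 replicate 2. Its signal over the negative-control mean was 1.92, 1.78 and 1.66 at E12, then 1.21, 1.02 and 2.20 at E13, 1.48 and 2.73 at E14, 1.36 and 2.98 at E16, and 1.51 and 2.14 at E18. At E14, E16 and E18 replicate 1 was the lower of the pair on this scale, and it was also the array with the higher negative controls, whose part in the result was not tested. The normalized level was 10.94 ± 0.30 (SD, n = 2) at E18 and 10.53 ± 0.46 (SD, n = 3) at E12, a difference of 0.41 (SE 0.38, 95% interval -0.46 to 1.27, limma adjusted p = 0.730), and -0.21 under scaling to array medians, under which the median of all genes was also negative, at -0.44. The quantile-normalized difference was 0.20 without E18 replicate 1 and 0.67 without E12 replicate 2. In order of level the stages ran E18, E14, E16, E12 and E13, and neighbours overlapped. Of the 7 contrasts, E14 minus E13 was the largest for Fzd7, at 0.88 (SE 0.38, unadjusted p = 0.0470, limma adjusted p = 0.825), and 0.52 without E14 replicate 2.

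**Figure D3:**
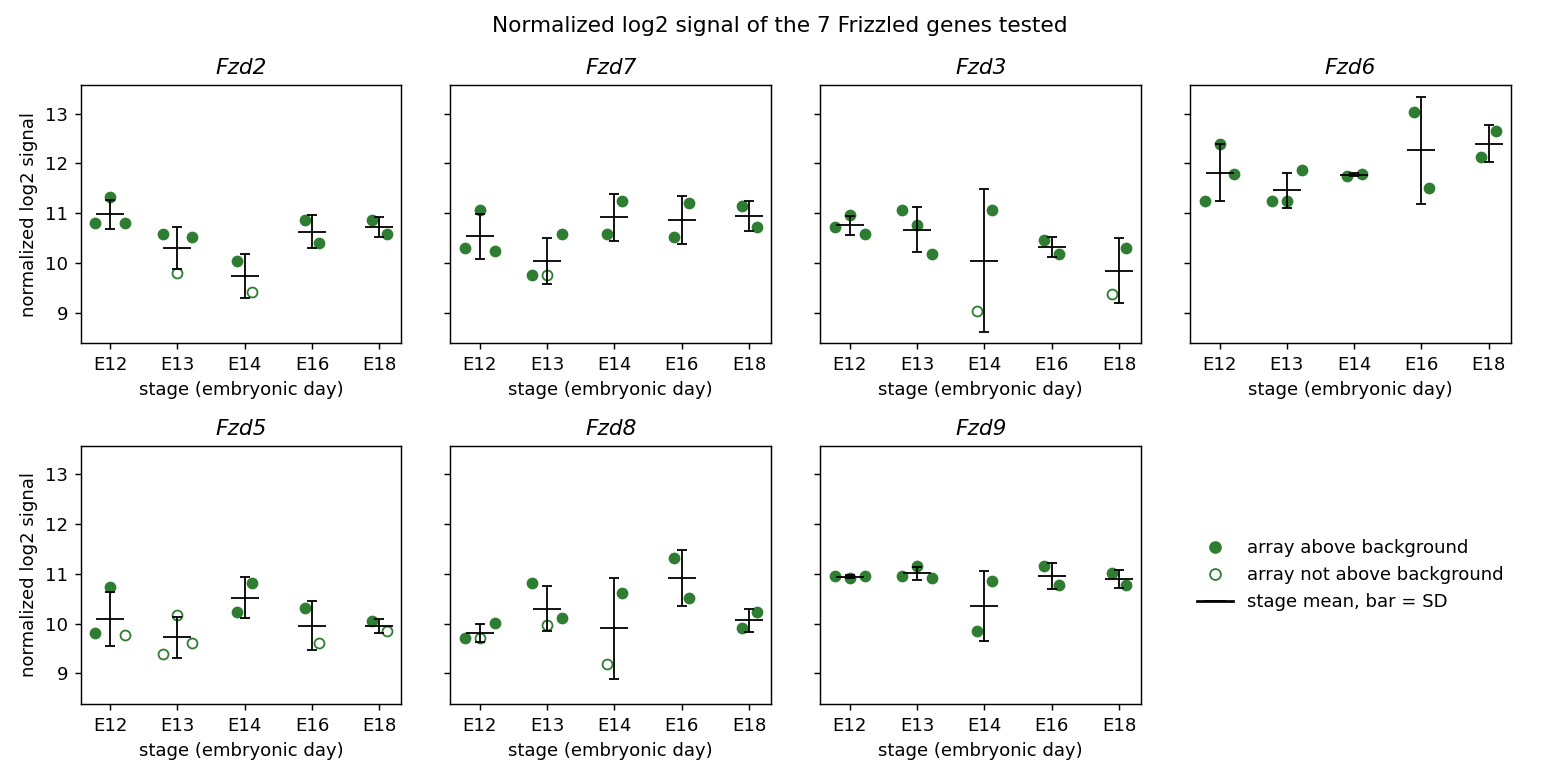
Normalized log2 signal (after normexp background correction and quantile normalization) of the 7 tested Frizzled genes by gestational stage; points are arrays, filled where above background, and bars are the stage mean with its SD. The E14 arrays of Fzd3 lie at 9.03 and 11.06 and the E16 arrays of Fzd6 at 13.02 and 11.50, and none of the 7 passed the test over the stages.

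Fzd6 and Fzd3 act together in planar cell polarity, as shown in the mouse for neural tube closure. Fzd6 was above background on all 12 arrays. Its signal over the negative-control mean was 3.47, 2.80 and 3.35 at E12, then 1.94, 1.97 and 4.47 at E13, 2.95 and 5.20 at E14, 3.57 and 3.26 at E16, and 2.52 and 10.2 at E18. The highest value belonged to E18 replicate 2 and the other E18 array lay below all E12 arrays on this ratio, although the signals themselves, 8812 and 9954 units, were alike. The negative-control mean of the 2 arrays was 3494.83 and 978.83 units, and the part of this background in the ratio was not tested.

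On the normalized scale Fzd6 was at 12.39 ± 0.37 (SD, n = 2) at E18 and 11.81 ± 0.57 (SD, n = 3) at E12. The difference was 0.58 (SE 0.47, 95% interval -0.49 to 1.65, limma adjusted p = 0.696), and it was 0.30 without E12 replicate 1 and 0.89 without E12 replicate 2. The slope over gestational day was 0.14 log2 units per day (SE 0.04, unadjusted p = 0.0216, limma adjusted p = 0.176), and it stayed between 0.09 and 0.22 under all 28 alternatives run, with adjusted p from 0.0596 to 0.554. The order of the stages was E18, E16, E12, E14 and E13, with overlap between all neighbours. The E16 value also depended on single arrays. Replicates 1 and 2 of E16 were at 13.02 and 11.50, and E16 minus E12 was 0.45 (SE 0.47) with both, -0.32 without replicate 1 and 1.18 without replicate 2.

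Fzd3 was above background on all arrays of E12, E13 and E16, and on 1 of 2 arrays at E14 and at E18. The arrays of E14 disagreed most. Replicate 1 had 1594 units, 0.914 times its negative-control mean, and replicate 2 had 2231 units, 2.36 times its own. Fzd2 differed between the same arrays in the opposite direction, at 1.34 and 0.82 times. Without E14 replicate 1, Fzd3 at E14 minus E12 was 0.31, against -0.71 (SE 0.54) with it, and -1.72 without replicate 2.

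At E18, Fzd3 was at 9.84 ± 0.66 (SD, n = 2), against 10.75 ± 0.19 (SD, n = 3) at E12, a difference of -0.91 (SE 0.54, 95% interval -2.15 to 0.32, limma adjusted p = 0.517). On the normalized scale all E18 arrays lay below all E12 arrays, as 34% of all genes had no overlap in either direction. E18 replicate 1 was at background. In signal over the negative-control mean, E18 replicate 2, at 1.76, lay above E12 replicate 2, at 1.71. The normalized difference was -0.46 without E18 replicate 1 and -1.37 without E18 replicate 2. The stage order was E12, E13, E16, E14 and E18, with overlap between neighbours. The slope was -0.14 log2 units per day (SE 0.04, unadjusted p = 0.0316, limma adjusted p = 0.223), opposite in sign to that of Fzd6, and it was -0.07 without E18 replicate 1 and -0.06 with the 3 high-background arrays left out. The difference between the slopes was not tested.

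Fzd8 and Fzd5 are closely related in sequence. Fzd8, whose cysteine-rich domain has been crystallised with a bound Wnt, was above background on both E16 and both E18 arrays, on 2 of 3 arrays at E12 and at E13, and on 1 of 2 at E14. At E16 its signal was 4294 and 1922 units, 1.85 and 2.12 times the negative-control mean, against 1721, 1760 and 1230 units, 1.57, 1.11 and 1.34 times, at E12. Both E16 arrays were above all E12 arrays, also on the normalized scale, where 21.7% of all genes had no overlap in either direction. The normalized level was 10.91 ± 0.57 (SD, n = 2) at E16 and 9.81 ± 0.18 (SD, n = 3) at E12, a difference of 1.11 (SE 0.43, 95% interval 0.12 to 2.09). It had an unadjusted p of 0.0316 and a limma adjusted p of 0.284. At E12, replicate 2 was at 0.918 of its threshold and replicate 3 at 1.02, so the size of this difference rests partly on a bound, and with the background taken from the negative controls it was 2.38.

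The size of this difference depended on E16 replicate 1, which is among the arrays of highest background. Leaving out that replicate gave a difference from E12 of 0.69, and leaving out all 3 high-background arrays gave 0.63 (limma adjusted p = 0.810). Fzd8 was at 10.30 ± 0.45 (SD, n = 3) at E13, 9.90 ± 1.01 (SD, n = 2) at E14 and 10.07 ± 0.23 (SD, n = 2) at E18. The stages ran E16, E13, E18, E14 and E12, and neighbours overlapped. E18 minus E16 was -0.85 (SE 0.47, limma adjusted p = 1), with both E18 arrays below both E16 arrays, as 21.7% of all genes had no overlap in either direction. It was -0.43 without E16 replicate 1 and -1.26 without E16 replicate 2.

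Fzd5, needed for yolk sac vessels in the mouse, was above background on the fewest arrays of the 7 tested members, with a median signal of 1.27 times the negative-control mean over the 12 arrays. It was above background on both E14 arrays, on 2 of 3 at E12, on 1 of 2 both at E16 and at E18, and on 0 of 3 at E13. Its E13 signals were 0.953, 0.945 and 0.984 of the threshold, so E13 has only a bound. E14 was the stage through which Fzd5 entered the tests, so the contrast with E13 is given as a description, without a p-value. The bound took, on each E13 array, the higher of the level of Fzd5 and that of the dimmest gene above background. The mean E14 level was 1.58-fold this bound. In signal over the negative-control mean the 2 stages overlapped, with E13 replicate 3 at 1.45 and E14 replicate 1 at 1.37. The thresholds of these arrays were 1.47 and 1.14 times that mean. The normalized means were 10.52 ± 0.41 (SD, n = 2) at E14 and 9.72 ± 0.41 (SD, n = 3) at E13. The stages ran E14, E12, E16, E18 and E13, each overlapping the next, and E18 minus E12 was -0.15 (SE 0.37, 95% interval -0.997 to 0.702), or 0.17 without E12 replicate 2.

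Fzd9, Fzd4 and Fzd10 form the remaining subfamily. Fzd9, a receptor studied mainly in bone and in hippocampal neurons, was above background on all 12 arrays. Its normalized levels were the steadiest of the tested members, with a residual SD of 0.30 log2 units, against 0.36 for the median of the 106 genes and 0.35 to 0.65 for the other 6 members. This did not hold for signal over the negative-control mean at E12. There its arrays were at 2.71, 1.65 and 2.55, and their SD of 0.57 was the largest of the 9 members. The normalized level was 10.94 ± 0.03 at E12 and 11.01 ± 0.12 at E13 (SD, n = 3 each), then 10.36 ± 0.71 at E14, 10.96 ± 0.27 at E16 and 10.89 ± 0.18 at E18 (SD, n = 2 each). With quantile normalization, arrays on which a gene holds the same rank get the same value, as for replicates 1 and 3 of E12.

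The E14 mean of Fzd9 was the lowest of the 5 and rested on replicate 1, at 9.86, since replicate 2 was at 10.86. E14 minus E12 was -0.59 (SE 0.26, unadjusted p = 0.0539, limma adjusted p = 0.796), -0.09 without E14 replicate 1 and -1.07 without replicate 2. E18 minus E12 was -0.05 (SE 0.26), with a 95% interval of -0.65 to 0.55, the narrowest of the 7 members, and it was 0.07 without E18 replicate 2. In order of level the stages ran E13, E16, E12, E18 and E14, with overlap between neighbours.

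Fzd4, which with Lrp5 receives the ligand Norrin in retinal vessels, was not detected above background on every array of any stage. Its signal over the negative-control mean was 0.916, 0.898 and 1.09 at E12, then 1.37, 0.773 and 1.09 at E13, 0.51 and 0.781 at E14, 1.14 and 1.03 at E16, and 0.772 and 0.963 at E18. It was the lowest gene spot of the whole array on E14 replicate 1 and E18 replicate 1. The 2 arrays on which it passed, E13 replicate 1 and E16 replicate 1, are among the 3 of highest background, and on the other 9 arrays it passed on 0. On E16 replicate 1 its 2652 units stood against a threshold of 2642.3.

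Fzd10 was likewise at background, with 0.832 to 1.67 times the negative-control mean and a median of 1.09. It passed on E13 replicate 3, at 1289 units against a threshold of 1137.4, and on E18 replicate 1, at 3910 units against 3870.6. With the threshold at the mean plus 3 SD, Fzd4 passed on 1 array and Fzd10 on 0, while the highest negative control as the threshold gave 2 and 3. No difference between stages is given for either gene, because each has only bounds at every stage or values at the edge of detection.

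**Figure D4:**
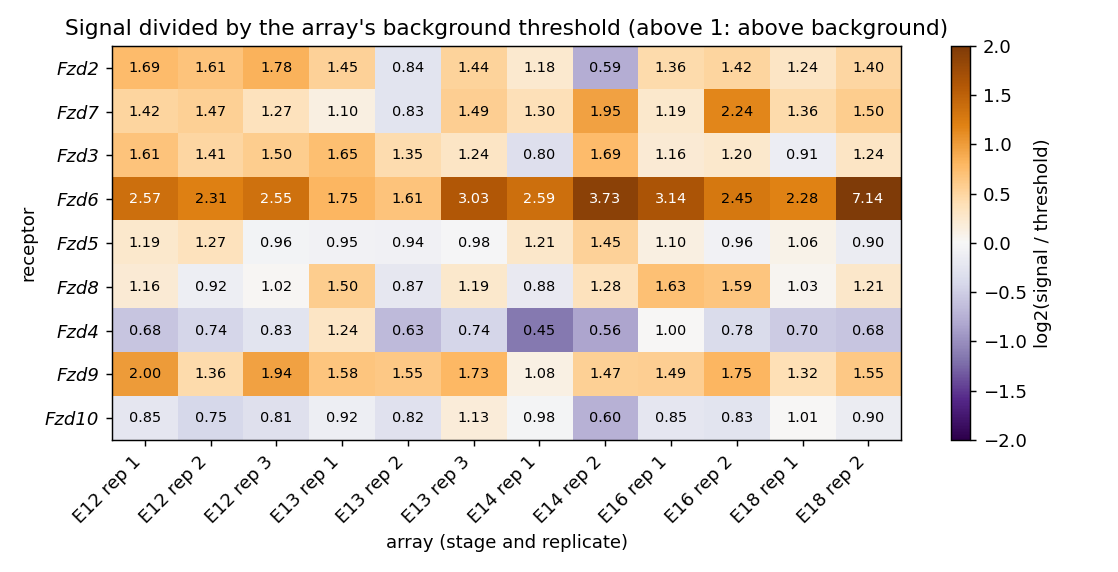
Signal of each Frizzled spot divided by the background threshold of its array (mean plus 2 SD of 6 negative controls), for the 9 receptors in rows and the 12 arrays in columns; colour is the log2 of that value. Fzd6 runs from 1.61 to 7.14, Fzd5 stays within 0.899 to 1.45, and Fzd4 has its lowest value, 0.449, on E14 replicate 1.

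The levels of the members were set against each other over the 12 arrays. Over the 21 pairs of tested members, Pearson's r of the normalized levels ran from -0.28 for Fzd3 with Fzd7 to 0.63 for Fzd3 with Fzd9, with a median of 0.08, and over all 5565 pairs of tested genes the median was -0.01. All pairs ran from -0.91 to 0.94. These values are descriptions across arrays that share stages, normalization and background. The genes named next were picked as the highest r among the tested genes outside the 9, so a high r is partly due to that choice. For Fzd6 they were Hes1, a repressor induced by Notch (r = 0.82), and Dll1, a Notch ligand (r = 0.81). For Fzd9 they were Ivl, a protein of the keratinocyte envelope (r = 0.60), which was above background on 5 of 12 arrays, and Krt14, a basal keratin (r = 0.58).

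Other genes of the Wnt pathway were examined as a list of 11, of which 9 were tested. The list held Ctnnb1, Axin1, Lrp5, Wnt11, Gsk3b, Wisp1, Ccnd1, Tle1 and Aes, beside Lrp6 and Dvl1, which had no spot under those symbols. In every comparison above, 0 were higher and 0 lower past the threshold, and 1 unadjusted p was under 0.05, for Lrp5, a Wnt co-receptor, at E16 minus E14 (-1.23, SE 0.41, limma adjusted p = 0.428). Lrp5 was named after its value was seen. The smallest p for E18 minus E12 were those of Tle1, a co-repressor of Tcf factors, at -0.48 (SE 0.40), Ctnnb1 at -0.17 (SE 0.14), Aes, a short relative of Tle1, at -0.07 (SE 0.12), and Gsk3b, a kinase that marks beta-catenin for destruction, at -0.16 (SE 0.34), with limma adjusted p from 0.696 to 0.929. The list's median was -0.11, against 0.02 for all genes. Smo, the Frizzled-class receptor of the Hedgehog pathway, was above background on all 12 arrays and its E18 minus E12 difference was 0.02 (SE 0.21, 95% interval -0.45 to 0.49).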

How the data were processed

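The authors deposited, for each array, whole-number intensities of the spots without a background column. Per the labels and the series' design text, total RNA was amplified, labelled with biotin, hybridised to the membrane and read by chemiluminescence. The image software is not given in the sources used here. A second deposited table gave a ratio per gene, which from its values is the signal minus the array's lowest spot over the same quantity for Ppia. It served as an alternative on the log2 scale, without Ppia and with the lowest gene of each array empty, which was Fzd4 on 2 arrays.

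Intensities were corrected by normexp on all 128 spots (offset 50), put on the log2 scale and quantile-normalized over the 120 gene spots, and the spots of genes spotted more than once were averaged. Comparisons used limma 3.58.1 (R 4.3.3) on stage means with a shared spread and 2-sided tests. The trend was fitted to the 5 stage means. P-values were adjusted by Benjamini and Hochberg over 106 genes. The code was tested on simulated data. All 9 members and the 11 Wnt genes were chosen with earlier results of these data known. All members were named, with the 4 Wnt genes of smallest p for E18 minus E12, Smo, and the 2 genes most correlated with each member detected on all arrays. By accession 8 of 9 members matched RefSeq (GRCm38.p6) under their own symbol, and Fzd9 matched by symbol. Other lists served for checks: 5 housekeeping genes for scaling, and endothelial, blood and keratinocyte markers, of which 3 of 9, 7 of 7 and 6 of 6 were on the array. The number of arrays limits the precision.

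No label pairs arrays by their replicate number, so the main fits used no pairing and the number entered only as a block in an alternative. Deviations from the stage means correlated between same-numbered arrays of E12 and E13 with r of 0.12, 0.16 and 0.22 across genes. Differently numbered arrays were not compared, so these values cannot show whether the numbers are a pairing.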

Additional observations from a re-analysis of the deposited data

How the results depend on the processing

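The number of Frizzled receptors past the threshold was 0 in each of the 9 comparisons and stayed 0 in all 219 refits, made under 29 alternatives. These covered the background correction, scaling, filter and prior, the deposited ratios, the 2 stages alone, each array or stage left out, the 3 high-background arrays left out, and the replicate number as a block. With the replicate block Fzd2 at E14 minus E12 was -1.24 (adjusted p = 0.309), and the block called none of the 7. Over all genes it called 0 against 1 in the F test, 1 against 2 for E16 minus E12, 0 against 1 for E16 minus E14 and 0 against 2 for E18 minus E12, and the same number in the other 5 comparisons. The filter for genes above background on all 12 arrays left Fzd6 and Fzd9 only. Fzd2 at E14 minus E12 ran from -2.76 to -0.79 over all alternatives (lowest adjusted p = 0.0792) and Fzd8 at E16 minus E12 from 0.63 to 2.38 (lowest adjusted p = 0.148), and for both the extreme of largest size came with the background taken from the negative controls. Under the alternatives Fzd9 at E14 minus E12, at -1.26 to -0.09, came nearest to the threshold of all member values and did not pass it. Of 1331 member values under alternatives, 92 changed sign, none of them past the threshold. At E18 minus E12, scaling to array medians turned Fzd7 to -0.21 and Fzd8 to -0.27, with the median of all genes at -0.44, and leaving out the normalization turned Fzd9 to 0.04, with that median at 0.24. The slopes of Fzd3 and Fzd6, Fzd2 at E14 and Fzd8 at E16 minus E12 kept their sign under every alternative run. The cause of these changes was not tested. Receptors above background on every array of a stage numbered 7 with each other threshold and without the 3 arrays, and 7 to 8 with 1 array left out. Signal over background limits Fzd4, Fzd5 and Fzd10 most.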
